A study of Manis javanica with 3 samples.

Results

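The genes described here are those whose symbol is AMY2, CPA1, CPB1, CTRB1, CTRC, CELA3B, SI, LCT, TREH or GP2, which stand for secreted pancreatic proteases, alpha-amylase, the disaccharidases of the intestinal brush border and a membrane protein of pancreatic secretory granules. The symbol was read from the Swiss-Prot entry of each gene or, failing that, from its KEGG entry. The 10 symbols were carried by 20 annotated genes, of which 19 were among the 24220 genes with values. The study sequenced RNA from 3 organs of a single adult female Malayan pangolin (Manis javanica, an ant and termite eater): liver, salivary glands and small intestine, with 1 library per tissue. The donor came from the wild and did not survive its rescue. The tissues were the 3 groups compared, and no treatment is named. Because each group was a single library, differences between tissues had no replicate check, and the intervals given below cover counting error only.

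The pancreas secretes trypsins, chymotrypsins, elastases and carboxypeptidases into the duodenum as inactive zymogens. Enteropeptidase on the duodenal surface activates trypsin, which in turn activates the others, and the endopeptidases cut proteins into fragments that the carboxypeptidases trim from the C-terminal end. Alpha-amylase, made by the pancreas and in some mammals by the salivary glands, cuts starch into short sugars. Sucrase-isomaltase, maltase-glucoamylase, lactase and trehalase, which are anchored in the brush border of enterocytes, split these and other short sugars into monosaccharides. Trehalose, the substrate of trehalase, is the main blood sugar of insects. GP2 is the major membrane glycoprotein of pancreatic zymogen granules and also occurs on the M cells that take up antigen in the gut.

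The total count was 10158924 fragments in the library of the small intestine, 8318686 in that of the salivary glands and 14568778 in that of the liver, so that a limit of 3 counts stood for 0.295, 0.361 and 0.206 CPM (counts scaled to a common library depth). FPKM (fragments per kilobase of transcript, scaled for library depth) was used for levels and for any comparison between genes. The library labelled small intestine went against its label: pepsin A (PGA, a stomach protease) stood at an FPKM of 94138 and acidic chitinase (CHIA) at 43108, and the gastric list of 21 genes had a median FPKM of 12.5 there, against 0.782 in the salivary glands and 0 in the liver. Of 32 genes under the symbols of enterocyte genes, 10 exceeded an FPKM of 1 in this library, and the median was 0.170. In the salivary glands 8 did so and in the liver 11. Several of the 10 were other proteins by product, such as transmembrane protease serine 2 (gene4680) at 41.7 and aminopeptidase O (gene13566) at 19.7. Of the gastric list, gastrin (GAST) had a count of 0. Gastric lipase (LIPF, gene6272) was at 0.539 and intrinsic factor (GIF) at 0.872 in the library labelled small intestine. Some of the 21 genes were other proteins by product, such as SOX-15 (gene15466) at 5.47. Named singly after their values were seen, liver-type and intestinal fatty acid-binding proteins (FABP1, FABP2), meprin beta (MEP1B), enteropeptidase (TMPRSS15, gene6436) and 1 copy of the fructose transporter SLC2A5 (gene9980) had a count of 0 in all 3 libraries, and the peptide transporter SLC15A1 was at 0.623, 0 and 0.115. A count of 0 in every library does not tell the tissues apart, and that of liver-type FABP1 held in the liver too. Villin (VIL1, gene24763) was at 23.995, 25.7 and 21.2 and a glucose cotransporter (SLC5A1, gene6542) at 1.94, 0.221 and 0.457. Dipeptidyl peptidase 4 (DPP4, gene1020) was at 3.06, 0.282 and 2.63. The hepatocyte list of 16 genes had a median FPKM of 519 in the liver, 0.247 in the library labelled small intestine and 0.185 in the salivary glands. The salivary list of 11 genes had a median of only 0.175 in the salivary glands, where aquaporin-5 (AQP5) stood at 94.3 and lactotransferrin (LTF) at 59.1.

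**Figure D1:**
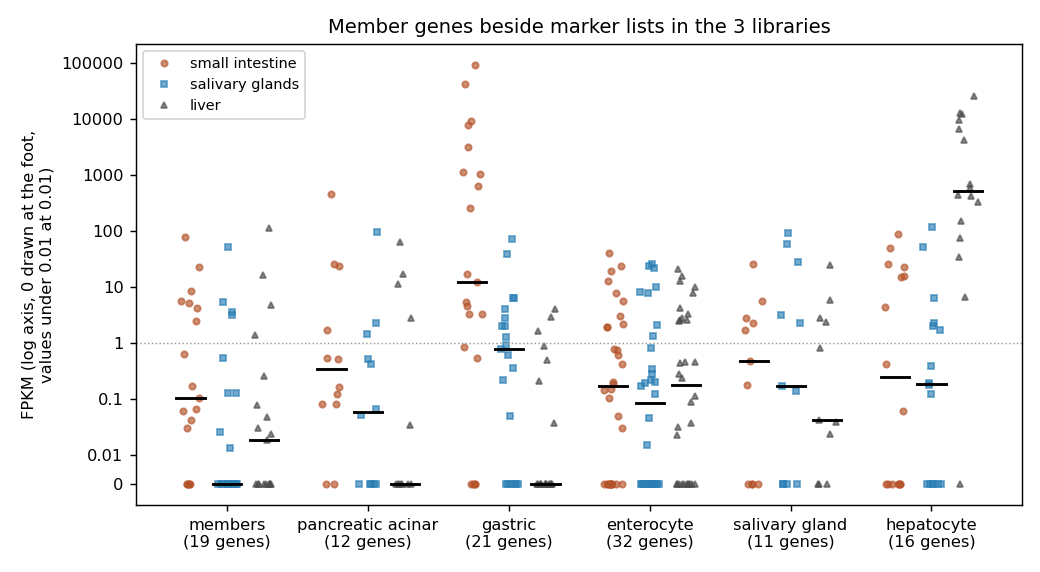
FPKM of the 19 member genes and of 5 marker lists in the 3 libraries, on a log axis with 0 at the foot; each point is 1 gene, circles are the library labelled small intestine, squares salivary glands and triangles liver, and black bars are medians. The gastric genes reach 94138 in the library labelled small intestine, while the median of the members is 0.104 there.

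The symbol did not always name the product. The best match in the NR protein database held the product name of the symbol for 13 of the 20 genes, entries named as -like included. The other 7 were relatives. The match of names does not tell whether the lactase-like gene4436, counted among the 13, is lactase or a relative. Under CPA1 stood, among others, a carboxypeptidase A1 (gene21480) and a carboxypeptidase A4 (gene21478, which had no expression values). Under CPB1 stood a carboxypeptidase B (gene2356), the mast cell carboxypeptidase A (gene2357) and a carboxypeptidase A6 (gene24897). Under CTRB1 stood 2 chymotrypsinogen 2-like genes (gene8081 and gene8082) and a chymotrypsin-like protease CTRL-1 (gene23942). Under SI stood 1 sucrase-isomaltase (gene7608) and 2 maltase-glucoamylase-like genes (gene10945 and gene10946). LCT covered lactase-phlorizin hydrolase (gene16448) and a lactase-like gene (gene4436), and TREH covered 2 neighbouring trehalase genes (gene2108 and gene2109). AMY2, CTRC, CELA3B and GP2 were each carried by 1 gene.

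Most members were low or at 0. In the library labelled small intestine 7 of 19 members exceeded an FPKM of 1, the threshold taken for expression, in the salivary glands 4 and in the liver 4. Over all genes the shares were 59.4%, 56.3% and 57.0%, against 36.8%, 21.1% and 21.1% of the members. The median FPKM of the 19 members was 0.104 in the library labelled small intestine, 0 in the salivary glands and 0.0187 in the liver, beside medians of 2.16, 1.76 and 1.89 over all genes. In all, 8 members exceeded an FPKM of 1 in at least 1 library and 3 did so in every library, among them AMY2 gene16549 and CTRB1 gene8081. A count of 0 in all libraries was found for 5 members, 26.3% of them, against 13.0% of all genes. The members held 0.0268% of the counts in the library labelled small intestine, 0.0217% in the salivary glands and 0.0525% in the liver. One gene made up most of each share: GP2 gave 68.5% and 84.6% of the member counts in the first and second of these libraries, and the maltase-glucoamylase-like gene10946 gave 90.6% in the liver.

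**Figure D2:**
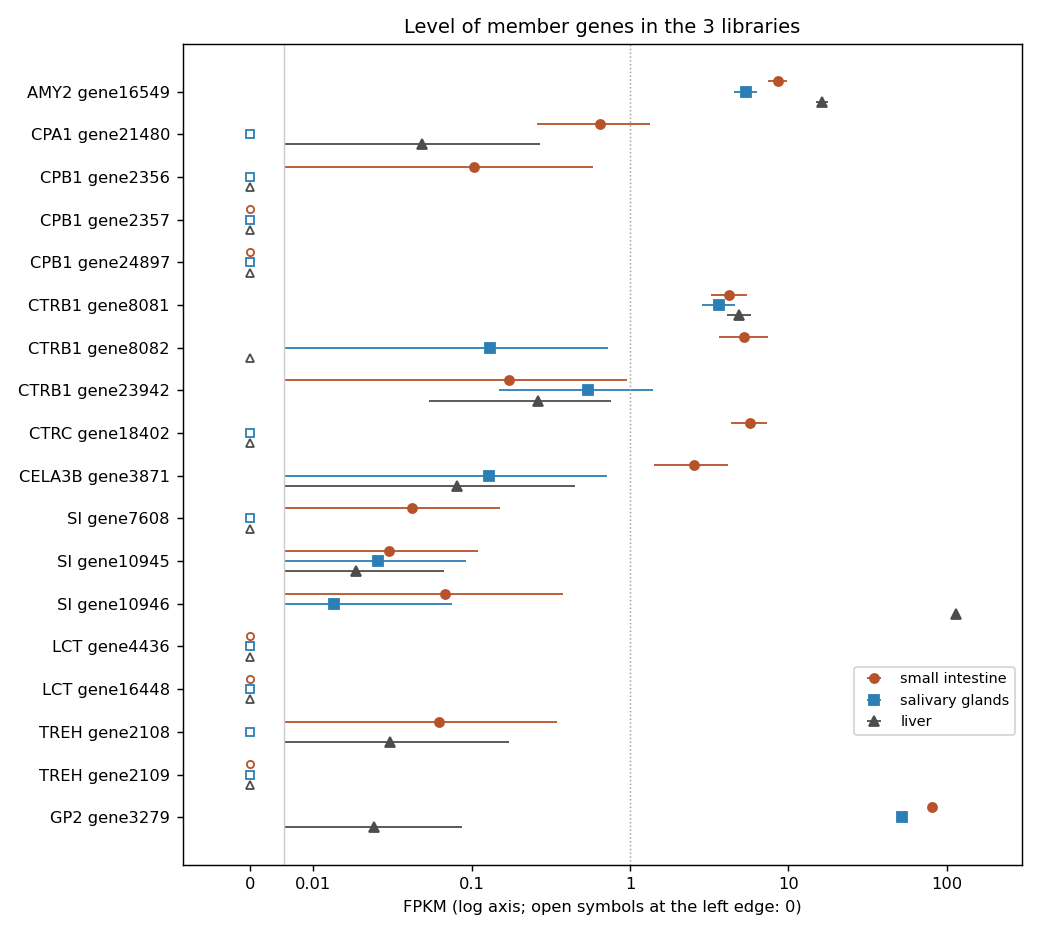
FPKM of 18 member genes in the 3 libraries (circles, library labelled small intestine; squares, salivary glands; triangles, liver) on a log axis, with bars for the 95% counting interval cut off at the grey line, and open symbols at the left for 0. Only GP2 gene3279 (80.1 and 51.9) and SI gene10946 (114, liver) exceed 50.

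To compare tissues, counts were scaled by TMM, and a gene with at least 10 counts over the 2 libraries was called when its levels differed at least 2-fold. Between the library labelled small intestine and the salivary glands, 7 members could be compared, and 4 were higher in the former, while 20.4% of the 17045 genes compared were higher there. None of the 7 was lower there by this rule, against 16.5% of all genes. With library size alone as the scaling, 35.5% of all called genes in this comparison were higher in the library labelled small intestine, against 55.3% with TMM. The member calls were the same 4 under both scalings. Against the liver, 5 of 8 members were higher in the library labelled small intestine (all genes, 24.3%) and 1 was lower (all genes, 23.7%). Between the salivary glands and the liver, 2 of 5 members were higher in the salivary glands (all genes, 22.9%) and 2 lower (all genes, 24.5%). Of the members compared, 3, 5 and 2 respectively had at most 2 counts in one of the 2 libraries, so that they passed the count minimum through the other library and had to differ. The counts of calls are therefore a description of single genes, and the comparisons share libraries.

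**Figure D3:**
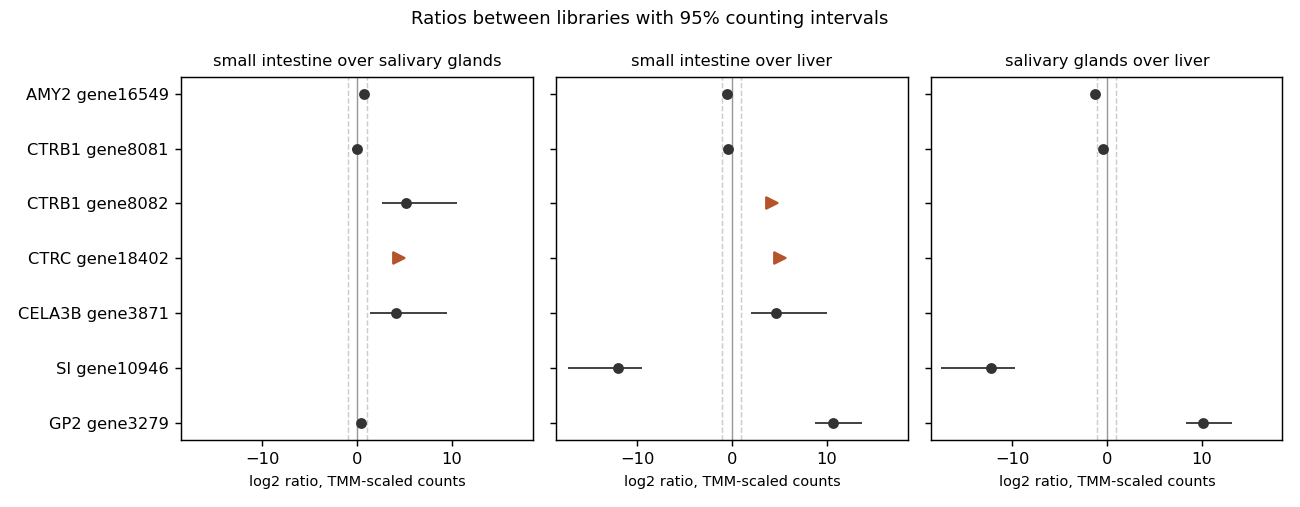
Log2 ratio of TMM-scaled counts between each pair of libraries for 7 members, each shown where it has at least 10 counts in the pair (dots with 95% counting intervals, dashed lines at 2-fold); arrowheads are lower bounds for genes with a count of 0 in the second library. Gene8081 lies within 2-fold in all 3 pairs, and gene10946 and GP2 lie farthest from 0.

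The only gene with an alpha-amylase product, AMY2 gene16549, was detected in every tissue and was highest in the liver. Its FPKM was 8.56 (95% counting interval 7.46 to 9.79) in the library labelled small intestine, 5.39 (4.55 to 6.35) in the salivary glands and 16.3 (14.98 to 17.8) in the liver, from 215, 144 and 531 counts. The 3 counting intervals of FPKM did not overlap, but the order among tissues had no replicate check. In TMM-scaled counts, the liver was 2.45-fold (2.03 to 2.97) above the salivary glands, which was called, and 1.46-fold (1.24 to 1.72) above the library labelled small intestine, which was not. The latter was 1.68-fold (1.35 to 2.09) above the salivary glands, also short of 2-fold. With library size alone as the scaling, the log2 ratio of these libraries went from 0.745 to 0.289. Their shares of the counts had overlapping intervals, 0.00185% to 0.00242% and 0.00147% to 0.00204%. The log2 ratio of the library labelled small intestine to the liver went from -0.544 to -0.783. In the salivary glands AMY2 ranked 8035 of 24220 genes by FPKM. It lay at NW_016540629.1:18582-121763 on the minus strand and spanned 103 kb for a gene length of 4759 bases, a ratio of 21.7 against a median of 5.62 over all genes.

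Of the 5 member serine proteases, 3 (CTRC gene18402, CELA3B gene3871 and CTRB1 gene8082) exceeded an FPKM of 1 in the library labelled small intestine alone, and gene8081 did so in all 3 libraries. Chymotrypsin C (CTRC gene18402, which regulates the activation and breakdown of trypsinogen) had 59, 0 and 0 counts in the libraries labelled small intestine, salivary glands and liver, and an FPKM of 5.71 (4.34 to 7.36) in the first. It was at least 22.1-fold higher there than in the salivary glands and at least 33.3-fold higher than in the liver, taking 3 counts per library as the limit for a count of 0. Elastase 3B (CELA3B gene3871) had 15, 1 and 1 counts and FPKM values of 2.52, 0.129 and 0.0803, a ratio of 16.9 (2.59 to 710) to the salivary glands and of 25.4 (3.91 to 1069) to the liver. Its interval was wide because the other libraries each gave a single count, and only the library labelled small intestine passed an FPKM of 1.

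The pair of chymotrypsinogen 2-like genes, precursors of a protease that cuts after aromatic residues, differed from each other although they were 521 bases apart on the same strand of scaffold NW_016532362.1. Gene8082 (112464-115475) had 33, 1 and 0 counts and FPKM values of 5.28 (3.63 to 7.41), 0.131 and 0. Gene8081 (107717-111942) had 62, 69 and 141 counts and FPKM values of 4.24 (3.25 to 5.44), 3.65 (2.84 to 4.62) and 4.89 (4.12 to 5.77). Gene8082 thus stood apart in the library labelled small intestine, 37.1-fold (6.21 to 1509) above the salivary glands and at least 18.6-fold above the liver. For gene8081 no pair was called. Its ratio of the library labelled small intestine to the salivary glands was 1.01 (0.705 to 1.44), and that of the salivary glands to the liver 0.737 (0.544 to 0.989). Gene8081 ended 101 bases from BCAR1 (an adaptor protein of cell adhesion) on the opposite strand, whose FPKM was 15.8, 11.7 and 21.1. The reads did not record strand, so reads of the 2 genes near that border cannot be told apart, and the part of BCAR1 in the values of gene8081 was not tested. The third gene of the symbol, CTRL-1 gene23942, had 1, 4 and 3 counts, too few to compare, and lay 134 bases from PSKH1 on the opposite strand (FPKM 3.59, 3.73 and 5.46).

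Trypsin itself carried no member symbol, and its genes were looked up by product after the values of the members were seen. An anionic trypsin (gene14665) had 2, 1 and 0 counts. A cationic trypsin-3-like gene (gene10941) had 2, 0 and 1196 counts, with an FPKM of 77.3 in the liver, the tissue in which CTRC and gene8082 had a count of 0. The list of other pancreatic acinar genes, 12 genes, had a median FPKM of 0.343 in the library labelled small intestine, 0.0598 in the salivary glands and 0 in the liver, and summed to 511, 101 and 96.2. In the library labelled small intestine most of the sum came from the phospholipase A2 gene PLA2G1B (gene9483) at 457, which had 0.513 in the salivary glands. The trypsin inhibitor SPINK1 was at 25.6, 0 and 11.6 in the libraries labelled small intestine, salivary glands and liver. In the same order, bile salt-activated lipase (CEL) was at 0.126, 0.428 and 17.0. Pancreatic lipase (PNLIP) was at 0.555 in the library labelled small intestine and lipase-related protein 1 (gene17338) at 0.520. Colipase (CLPS) and the acinar transcription factor PTF1A had a count of 0 in all 3 libraries. BHLHA15, a factor of secretory cells in general, was at 24.5, 95.9 and 64.8. Of the 14 genes of the islet list, insulin (INS) had a count of 0 in all 3 libraries. In the library labelled small intestine 2 of the 14 exceeded an FPKM of 1, chromogranin A (CHGA) at 101 and somatostatin (SST) at 2.24. How far pancreatic tissue accounted for the protease values was not tested.

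Carboxypeptidase A1 (gene21480) had 7, 0 and 1 counts and carboxypeptidase B (gene2356), which removes basic residues, had 1, 0 and 0. The mast cell carboxypeptidase A (gene2357) and carboxypeptidase A6 (gene24897) had a count of 0 in all libraries. Of 8 genes under the symbols of mast cell genes, 6, 2 and 3 exceeded an FPKM of 1 in the libraries labelled small intestine, salivary glands and liver. These counts include other receptors by product, listed under the symbol KIT. They were vascular endothelial growth factor receptor 3 (gene1799) at 2.27, 0.590 and 5.56 and Ret (gene4865) at 3.26, 1.30 and 0.774. Tryptase (TPSAB1) was at 6.23, 0.496 and 0.607, histidine decarboxylase (HDC, gene25905) at 16.9, 0.278 and 21.6, the receptor KIT (gene4214) at 2.87, 1.78 and 0.0310, and chymase (CMA1) at 0, 0.0397 and 0.

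Gene21480 lay at NW_016550003.1:359778-366161 on the plus strand, 8403 bases from carboxypeptidase A5 (gene21479), which had FPKM values of 0.194, 0.0786 and 0.0698. Among 15 other metallocarboxypeptidases, carboxypeptidase E (CPE, gene24940, a prohormone processor) was at 28.2 in the library labelled small intestine, and the plasma enzymes CPB2 at 152 and CPN1 at 73.7 led in the liver.

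The 7 genes under the symbols of disaccharidases had at most 2 counts each in the library labelled small intestine, and only 1 of them, in the liver, exceeded an FPKM of 1. The maltase-glucoamylase-like gene10946 had 1, 1 and 6930 counts, for FPKM values of 0.0682, 0.0135 and 114 (111 to 117) in the libraries labelled small intestine, salivary glands and liver. It held 0.0476% (Wilson 95% interval 0.0465 to 0.0487) of the liver counts and ranked 567 of 24220 genes there. In TMM-scaled counts the liver was 4094-fold (735 to 161722) above the library labelled small intestine and 4603-fold (826 to 181823) above the salivary glands, both called, with upper bounds set by single counts. All 26 genes of the list of other carbohydrases were lower than gene10946 in the liver, where the highest was a lysosomal alpha-mannosidase (MAN2B1, gene26784) at 43.2. Amylase, at 16.3, was exceeded by 6 of these 26 in the liver.

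The neighbouring maltase-glucoamylase-like gene10945, of 7930 bases against 6431, had 2 counts in each of the 3 libraries. The genes lay on the minus strand of scaffold NW_016534708.1, at 107182-198229 and 215403-297111, with 17173 bases between them. Of the 7 genes on this scaffold, gene10946 and the cationic trypsin-3-like gene10941 were above an FPKM of 1, both in the liver alone. The 3 genes between them, PRSS58, a DBH-like monooxygenase and gene10945, and the 2 genes beyond gene10946, the taste receptor TAS2R38 and the lectin CLEC5A, had at most 6 counts in any library.

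**Figure D4:**
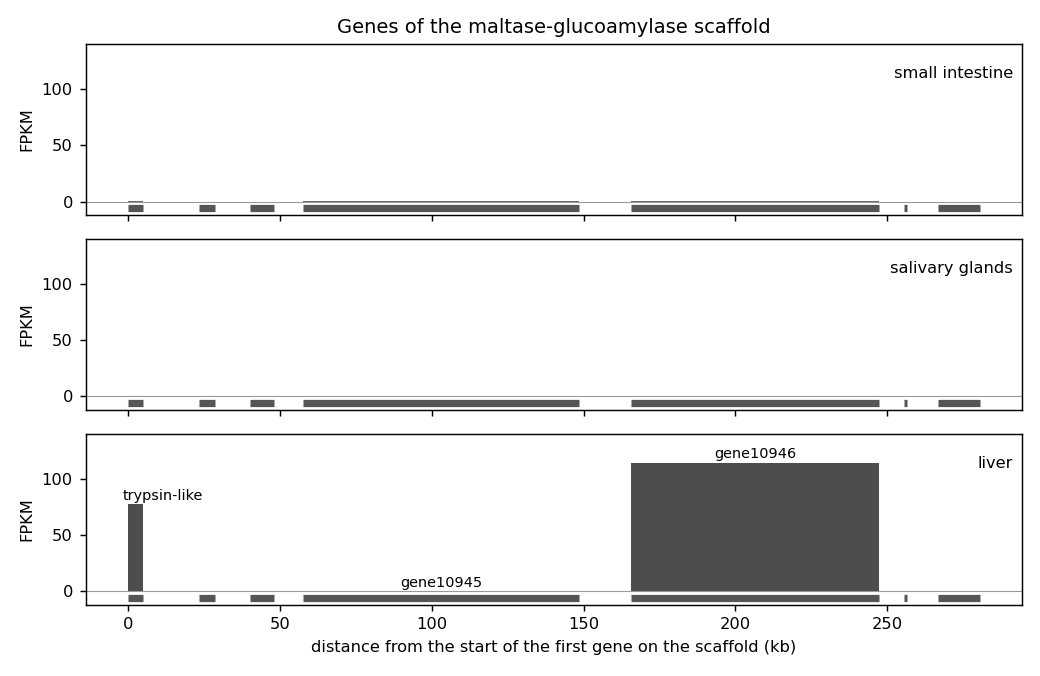
FPKM of the 7 genes of the scaffold with the maltase-glucoamylase-like genes, as bars over the extent of each gene (dark blocks) in kb from the start of the first gene, with 1 panel per library. In the liver the trypsin-like gene stands at 77.3 and gene10946 at 114, and gene10945 between them is at 0.0187.

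Sucrase-isomaltase (gene7608), which splits sucrose and the branch points of starch, had 2, 0 and 0 counts over a gene length of 5484 bases. Lactase-phlorizin hydrolase (gene16448) and the lactase-like gene4436 had a count of 0 in all libraries, although gene4436 overlapped ZWILCH (FPKM 2.13, 3.99 and 0.475) on the opposite strand. The trehalase genes, 8619 bases apart, had 1, 0 and 1 counts (gene2108) and 0 in all libraries (gene2109). A count of 0 allows at most 0.295 CPM in the library labelled small intestine, so that low levels were not detectable at this depth. An acid trehalase-like gene without a symbol (gene22476), found by product name, had FPKM values of 5.95, 13.6 and 11.6. Whether its product splits trehalose was not tested. In the library labelled small intestine, 10 of 32 genes under enterocyte symbols exceeded an FPKM of 1. The salivary glands had 8 such genes and the liver 11. Villin and dipeptidyl peptidase 4 (gene1020) were among the 10, but several of the 10 were other proteins by product. FABP1, FABP2, MEP1B and enteropeptidase had a count of 0 in all libraries, so that their values do not tell the tissues apart. The part of the share of enterocytes in the values of the disaccharidases was not tested. In bulk tissue, fewer cells of a type and less RNA per cell cannot be told apart.

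GP2 (gene3279, NW_016529093.1:57897-73667, plus strand) was the highest member in both the library labelled small intestine and the salivary glands. It had 1866, 1530 and 2 counts and FPKM values of 80.1 (76.5 to 83.8), 51.9 (49.3 to 54.5) and 0.0243, and ranked 548 and 1012 of 24220 genes in the first and second of these. The library labelled small intestine was 1.37-fold (1.28 to 1.47) above the salivary glands, which was not called. With library size as the only scaling this difference vanished, since GP2 held 0.0184% of the counts in each of the 2 libraries. GP2 was 1579-fold (437 to 13051) and 1152-fold (318 to 9519) above the liver, both called. These ratios rest on 2 counts in the liver, where the normalized value stood for 1 fragment. Its neighbour UMOD, a zona pellucida domain protein of the kidney like it in sequence, was at 0.152, 0.0403 and 0, and PDILT, the next gene, at 456, 0.283 and 0. The list of zona pellucida domain symbols held 19 genes, several of which were other proteins by product. All 19 were lower than GP2 in the library labelled small intestine, where the highest was DMBT1 (gene3018) at 53.1, and in the salivary glands, where the highest was an HHIP-like gene (gene2298) at 8.33. Of the acinar genes, PLA2G1B was at 457 and 0.513 in the same 2 libraries.

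The salivary level as a percent of that in the library labelled small intestine set the members apart from each other. It was 64.8% for GP2, 63.0% for AMY2 and 86.0% for CTRB1 gene8081, but 5.12% for CELA3B and 2.47% for gene8082. For CTRC the count of 0 in the salivary glands allowed at most 4.52%. This bound is in TMM-scaled counts, whereas the other percentages are ratios of FPKM. Over the 62 genes above an FPKM of 1000 in the library labelled small intestine the median was 81.5%, with a range of 0.0311% to 317%. The 8 of these with at most 3 counts in the liver, a subset formed after the values were seen, lay between 0.0311% and 0.0977%. Single counts underlay the values of CELA3B and gene8082.

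The genes nearest in pattern to gene10946 and GP2, the members of highest FPKM, were found by the Euclidean distance of log2(FPKM + 1) over the 3 libraries, as a description. Nearest to gene10946 were CYP2A10 (0.102), ACMSD (0.165), SLC13A2 (product SLC13A5, 0.227), a new gene without annotation (0.237) and ELOVL5 (product ELOVL2, 0.240), with 0 to 0.174 outside the liver and 102 to 133 within it. Nearest to GP2 were the keratin KRT5 (0.165), the tetraspanin TSPAN1 (0.481), THBS4 (0.536), KRT14 (0.563) and MFSD4 (0.858). KRT5 had FPKM values of 88.2, 55.0 and 0.

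Other genes of related function, from lists of symbols, gave the members their setting. Of 21 other trypsin fold serine proteases, 13 could be compared between the library labelled small intestine and the salivary glands, with 5 higher and 4 lower in the former. Hepsin (HPN, gene10636) was at 64.6, 23.6 and 163 and led that list except in the salivary glands, where PRSS23 (gene7131) was at 28.5 and PRSS22 (gene11424) at 25.3. Among 18 genes of protease inhibitors, alpha-1-antitrypsin (SERPINA1) was at 15.5, 120.0 and 586 and cystatin C (CST3, gene25022) at 199.8, 186 and 54.7. Of the 26 other carbohydrases, 23, 22 and 23 exceeded an FPKM of 1 in the libraries labelled small intestine, salivary glands and liver. CHIA, counted in both the gastric and the carbohydrase list, was at 43108, 40.0 and 0.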

How the data were processed

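After trimming and quality filtering, the authors mapped reads to the M. javanica genome with TopHat2. They name RSEM for FPKM. The build is not given in the sources used here, nor is the treatment of reads matching several copies in the counts. The deposited counts are taken as estimated counts of fragments per gene, which the authors left unscaled, in whole numbers. The deposited FPKM values did not follow from count, gene length and a factor per library alone. In the library labelled small intestine, 1 count stood for 0.0619 over 1671 bases (gene2108) and for 0.0682 over 6431 bases (gene10946). A deposited normalized signal and gene lengths were read for checks only. Divided by its factor, that signal gave the count or, for 31.8% to 33.0% of counted genes, 1 less (tolerance 0.5). The authors also deposited annotation from 7 databases.

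The members and lists were chosen with earlier results of these data known. Every member was named, except 1 that is not reported here though counts over members include it, together with the 2 highest genes of a list where they bear on a member, the 5 genes nearest each of the members of highest FPKM, and any gene needed to say what a copy is. Genes found by product were named after their values were seen. Several list symbols stand for paralogs, so products are given. From the pancreatic islet list only insulin, CHGA and SST were named, and the goblet list bore on no member. Of their 14 and 5 genes, 2 and 3 exceeded an FPKM of 1 in the library labelled small intestine.

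TMM factors came from edgeR 4.0.16 in R 4.3.3, and other steps used Python 3.11.15, pandas 2.3.3, numpy 2.4.6, scipy 1.17.1 and matplotlib 3.10.9. Fold intervals are exact conditional binomial, FPKM intervals exact Poisson. Tissues had no replicates, so no test of a tissue difference was possible, and no p-value is given. The MA-plot q-value and edgeR's exact test, run as alternatives, put reads or an assumed variation in place of replicates. On simulated data the fold rule and the q-value recovered most changed genes, and the exact test did not recover them. The simulated counts held counting error only, without variation between animals, and changes far above 2-fold. They therefore cannot show how well any of these rules works on single tissue libraries.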

Additional observations from a re-analysis of the deposited data

How the results depend on the processing

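Calls of members differing 2-fold kept their count under library size, upper quartile scaling, the ratio of FPKM and the MA-plot q-value: 4, 6 and 4 for the library labelled small intestine against salivary glands, against liver, and salivary glands against liver. Without the count minimum they were 9, 9 and 7. A fold of at least 4 gave 4, 6 and 2, and edgeR's exact test with an assumed variation of 0.4 gave 3, 6 and 2. The q-value and the exact test had no replicates and cannot test a tissue difference. Over all genes the rule without the count minimum called 8586, 10804 and 10564, a fold of at least 4 2990, 4815 and 4555, and the exact test 1651, 3515 and 3323, against 6292, 8568 and 8332. Library size moved the median log2 ratio of all genes to -0.47, -0.29 and 0.16, and the ratio of FPKM to 0.09, -0.09 and -0.18. Of 60 recomputed log2 ratios of members, 56 stayed within their counting interval (or, against a count of 0, past 2-fold) and 4 left it, all under library size, and none changed the direction of a call. The uncalled GP2 ratio to the salivary glands went from 0.46 to -0.0019.

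Members above the threshold numbered 5, 2 and 2 at an FPKM of 5 in the libraries labelled small intestine, salivary glands and liver, 8, 5 and 4 at 0.5, and 7, 4 and 4 with TPM or at least 10 counts. By product name 14 genes were found, 13 of them members, and 19 by the Swiss-Prot entry alone, against 20. The median salivary percent of the reference genes, 81.5%, was 0.0782% for those with at most 3 counts in liver, a subset formed after the data were seen. No paired analysis was possible because each tissue had 1 library. Depth limits every value under 10 counts, and 1 animal cannot show the spread between animals.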
